A study of Mus musculus with 12 samples.

Results

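The miR-23a/27a/24-2 cluster and its paralog, the miR-23b/27b/24-1 cluster, hold 3 miRNA hairpins each. Their 10 locus-specific mature arms, 5 from each cluster, were followed in mouse quadriceps, out of 1966 mature miRNAs in the count table (the prefix mmu- of mouse miRNAs is mostly omitted here). The members are defined by their locus. MiR-24-3p was left out because both clusters encode the same mature sequence, so its reads cannot be assigned to one of them. The small RNA libraries came from the quadriceps, a thigh muscle, of WT mice of the C57BL/6J strain. They cover 4 ages, named by the day after birth as P1, P5, P14 and P90, the last being adult, with 3 libraries each and 12 in all. The study's methods state that 3 mice were taken for each time point, and no treatment, transgene or knockout was present in these groups. The time course was made to ask which of the miRNAs deregulated by loss of Mbnl1 are also regulated as muscle matures.

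In a miRNA cluster, several hairpins are cut by Drosha from one primary transcript, and Dicer then releases a duplex from each hairpin. One strand of the duplex, the guide, is usually kept in the Argonaute protein, whereas the other, the passenger, is mostly degraded. The 3p arms are the main products of the miR-23, miR-27 and miR-24 hairpins. In muscle, miR-23a is known to repress the ubiquitin ligases atrogin-1 and MuRF1 that drive atrophy, miR-27 to repress Pax3 in satellite cells and the growth inhibitor myostatin, and miR-24 to promote myoblast differentiation. Both clusters are also well known in endothelial cells.

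The miR-23a/27a/24-2 hairpins lie on the plus strand of chromosome 8 within 404 bases (chr8:84208518-84208921, GRCm38.p6). MiR-23a and miR-27a are in no other annotated gene of GENCODE vM39, and the miR-24-2 hairpin partly overlaps an exon of the lncRNA Gm26532. The miR-23b/27b/24-1 hairpins lie on the plus strand of chromosome 13 within 792 bases (chr13:63300484-63301275), inside Aopep, which spans chr13:62964893-63326096. In GENCODE vM39, the miR-23b hairpin is in an Aopep intron, and miR-27b and miR-24-1 are in an exon of an Aopep transcript. All 3 are also within an intron of Fancc on the opposite strand. The mature sequences of 9 members were taken from RefSeq, and they are shown because the pairs differ in how well their reads can be told apart. They are written 5′ to 3′ with the seed (bases 2 to 8), the part that selects targets, in capitals.
mmu-miR-23a-3p: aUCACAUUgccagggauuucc
mmu-miR-27a-3p: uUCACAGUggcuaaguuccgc
mmu-miR-27b-3p: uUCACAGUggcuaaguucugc
mmu-miR-24-2-5p: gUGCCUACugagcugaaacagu
mmu-miR-24-1-5p: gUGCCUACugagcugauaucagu
mmu-miR-23a-5p: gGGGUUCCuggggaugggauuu
mmu-miR-23b-5p: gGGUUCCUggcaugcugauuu
mmu-miR-27a-5p: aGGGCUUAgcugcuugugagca
mmu-miR-27b-5p: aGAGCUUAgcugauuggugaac
No sequence is shown for mmu-miR-23b-3p. The PCR primer that the paper lists for miR-23b differs from the miR-23a-3p sequence only at a base near its 3′ end. How well the reads of miR-23a-3p and miR-23b-3p can be told apart was not examined. The paper states that its northern blots could not separate miR-23a from miR-23b. It also states that its PCR primers for them carried the distinguishing base at the 3′ end. MiR-27a-3p and miR-27b-3p share the seed UCACAGU and differ by the single substitution C19U (position counted from the 5′ end), so a read that ends within the first 18 bases fits both. MiR-24-2-5p and miR-24-1-5p share the seed UGCCUAC and their first 16 bases. The 5p arms of the other hairpins have paralogs with different seeds. MiR-23a-5p and miR-23b-5p share only 3 leading bases, and 8 substitutions separate miR-27a-5p from miR-27b-5p.

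Library totals ranged from 20363495 to 53126984 counts, and each member had at least 50 counts in every library. Scaling matters at P90, where the TMM factors were 0.247 to 0.384, against 1.235 to 1.725 at the other ages. The summed muscle fibre markers took 55.9% to 58.6% of the counts at P90, against 24.65% to 34.3% before, and 3 of the 7 rose and 3 fell between P1 and P90 (median log2FC 0.28, against -0.72 for all 809 miRNAs tested). With TMM scaling, which all log2FC of these lists use, both endothelial markers rose (median log2FC 1.49) and took 0.32% to 1.3% of the counts. All 4 smooth muscle markers rose with it too (median 1.69, 1.82% to 3.9% of the counts). As summed shares of the counts, both lists were lower at P90 than at P1. Endothelial markers took 0.57% to 0.64% at P1 and 0.32% to 0.45% at P90. Smooth muscle markers took 2.65% to 3.05% at P1 and 1.82% to 2.44% at P90. Of 7 blood markers, 2 rose and 2 fell (median -0.57, 0.02% to 0.13% of the counts). No marker was at 0 in every library, and the part of these cells in the results was not tested. In such bulk samples, fewer cells of a type and less RNA per cell cannot be told apart. The P14 and P90 libraries also stood apart in their dependence on GC content, with slopes of 0.377 to 0.561 and -0.591 to -0.38 log2 units per 10 GC points, against -0.012 to 0.075 at P1 and P5.

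The 4 guide strands held nearly all reads of the members, 97.3% to 98.1% in each library. On the TMM-normalized scale (CPM, counts relative to the scaled library size), mmu-miR-27b-3p had a mean of 6363 CPM over the 12 libraries and rank 24 among the 809 miRNAs tested. Next were mmu-miR-23a-3p with 3569 CPM (rank 33), mmu-miR-23b-3p with 2906 CPM (rank 38) and mmu-miR-27a-3p with 1069 CPM (rank 78). The passenger strand mmu-miR-24-2-5p followed with 262 CPM at rank 145, and the other 5 passenger strands were at ranks 290 to 389. The mature arms are 21 to 23 bases long, so length hardly enters, but different sequences can be ligated and amplified with different efficiency, and a ratio of reads is not a ratio of molecules.

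The chromosome 8 cluster contributed a nearly constant share of the members' reads. This share was 35.9% ± 1.11 (SD, n = 3) in the newborns, 34.5% ± 0.43 at P5, 34.0% ± 0.09 at P14 and 34.6% ± 1.11 in the adults. The P1 and P90 libraries overlapped (34.95% to 37.1% and 33.6% to 35.8%), and the 95% Wilson interval extended at most 0.19 percentage points to a side. Every P1 library was above every library at P5 (34.0% to 34.84%) and P14 (33.88% to 34.06%). The sum hid shifts in both directions between individual paralogs.

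**Figure D1:**
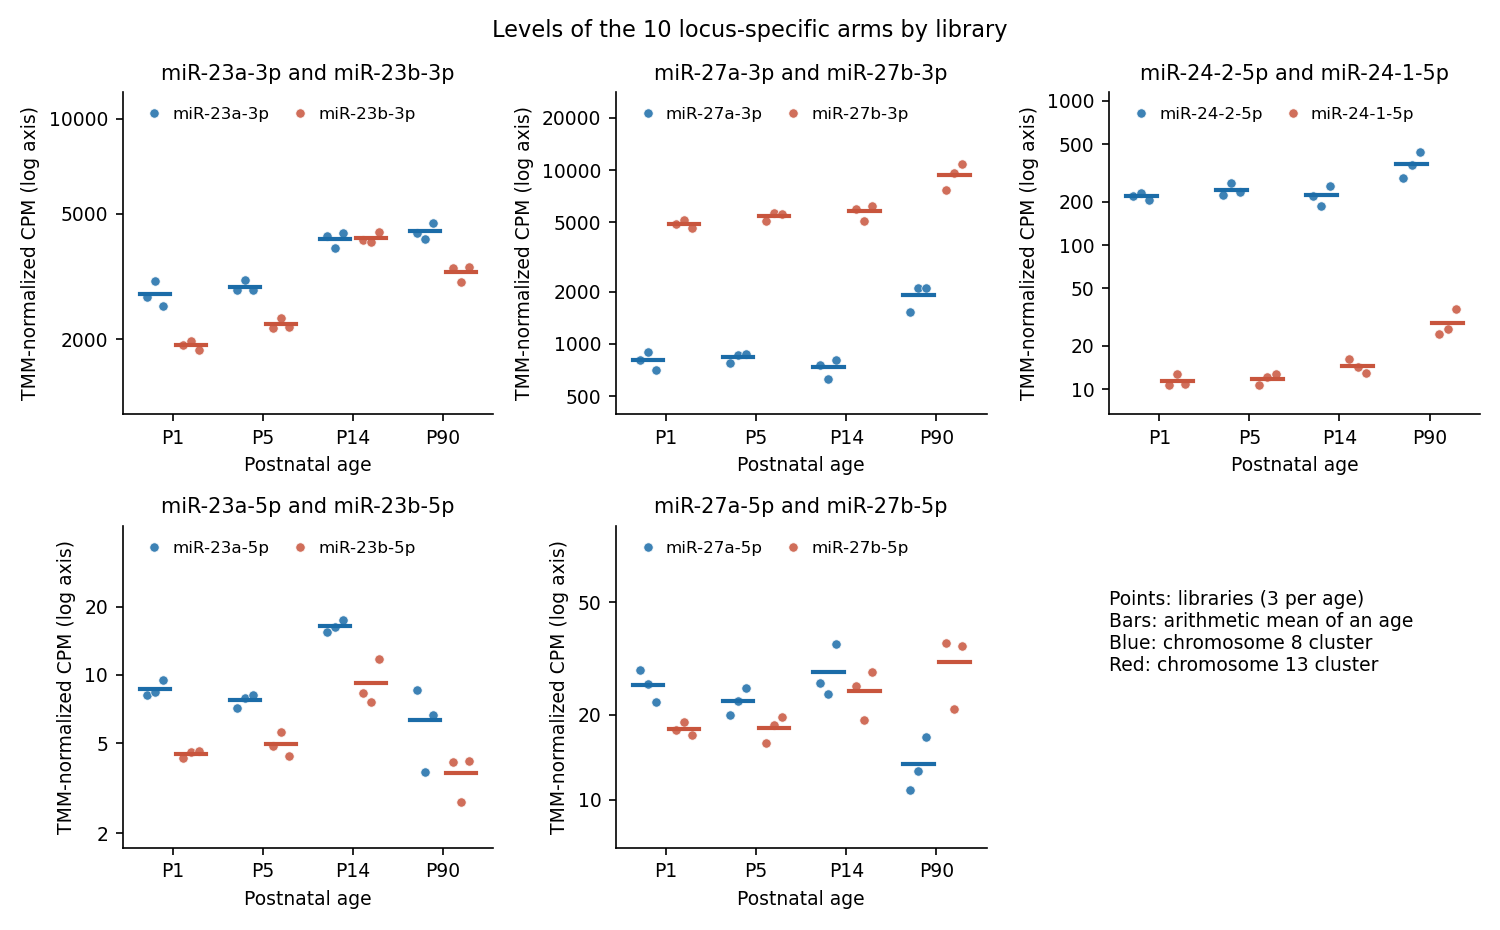
TMM-normalized CPM of the 10 members (log axis) by postnatal age, with 1 panel for each paralog pair, points for libraries and bars for the arithmetic mean of 3 libraries. MiR-23a-3p and miR-23b-3p meet at P14, and miR-27a-5p is above miR-27b-5p in the mean at P1, P5 and P14 and below it at P90. The change of level between ages depends on the scaling, since all 10 members were lower at P90 than at P1 with library totals alone and all 10 were higher with upper-quartile factors.

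Ratios of the counts of a paralog pair within a library do not depend on this scaling. Of the 5 pairs, 4 changed across the ages (limma F-test on log2 ratios, adjusted P value (Padj) under 0.05), as did 66.2% of the 68 same-arm paralog pairs tested in the table. None of the 5 was called from P1 to P5 (5.88% of the 68 pairs). From P5 to P14, 2 were called (33.8%), from P14 to P90 3 (58.8%), and from P1 to P90 3 (50%). A changing ratio was therefore common among paralogs and not particular to these clusters. The age means of the log2 ratio spanned 0.55 for the miR-23 guides and 0.69 for the miR-27 guides, against a median span of 1.66 over the 68 pairs. The spans were 0.30 for miR-23-5p, 0.68 for miR-24-5p and 1.69 for miR-27-5p.

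MiR-23a-3p was the more abundant of the miR-23 guides at P1, P5 and P90, but not at P14. The ratio of miR-23a-3p to miR-23b-3p was 1.42, 1.55 and 1.38 in the P1 libraries and 1.32, 1.31 and 1.31 at P5. It was 1.03, 0.953 and 0.992 at P14 and 1.29, 1.36 and 1.37 at P90. Each P14 library was below all 9 libraries of the other ages. The log2 ratio fell by 0.40 from P5 to P14 (SE 0.07, limma Padj = 0.000427) and rose by 0.44 from P14 to P90 (SE 0.07, Padj = 0.00018). Between P1 and P90 the difference was -0.11 (95% CI -0.26 to 0.04, limma Padj = 0.253). The change across ages rested on P14, since without the P14 libraries the age means spanned 0.14 log2 units (Padj = 0.267), and no value with the GC trend removed was available for this pair.

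MiR-27b-3p was the most abundant member in every library, with miR-27a-3p at a fraction of it that was lowest at P14 and highest at P90. The ratio of miR-27a-3p to miR-27b-3p was 0.166, 0.174 and 0.152 at P1, and 0.152, 0.152 and 0.158 at P5. It was 0.125, 0.123 and 0.130 at P14. The P90 libraries had 0.198, 0.218 and 0.194 and were above the libraries of all other ages. The log2 ratio fell by 0.29 from P5 to P14 (SE 0.08, limma Padj = 0.0143), then rose by 0.69 to P90 (SE 0.08, Padj = 1.52e-05). The net difference between P1 and P90 was 0.32 (SE 0.08, limma Padj = 0.00765), a 1.24-fold gain for miR-27a-3p. With the GC trend removed this difference was 0.71 (Padj = 1.61e-05), whereas without the mean-variance trend in limma it missed the threshold (Padj = 0.06). The P14 versus P5 fall also missed it without that trend (Padj = 0.0877) and without P5 replicate 3 (Padj = 0.0518).

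The ratio of the miR-27 passenger strands moved the other way from P14 to P90 and from P1 to P90. The ratio of miR-27a-5p to miR-27b-5p was 1.63, 1.36 and 1.31 at P1 and 1.25, 1.23 and 1.27 at P5. At P14 it was 1.02, 1.24 and 1.25. At P90 it was 0.302, 0.602 and 0.477, so that miR-27a-5p went from the more to the less abundant of the pair in all 3 libraries. The log2 ratio fell by 1.69 from P1 to P90 (SE 0.22, limma Padj = 2.98e-05) and by 1.40 from P14 to P90 (SE 0.22, Padj = 0.000168). With the GC trend removed, the difference between P1 and P90 was -1.06 (Padj = 0.00276), and that between P14 and P90 was -0.55 and missed the threshold (Padj = 0.0823). GC content is 54.5% in miR-27a-5p and 45.5% in miR-27b-5p.

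The passenger strands of the miR-24 hairpins differed most in level. MiR-24-2-5p exceeded miR-24-1-5p by 17.9 to 20.3 times at P1, 18.3 to 22.2 times at P5, 13.14 to 19.8 times at P14 and 12.11 to 13.8 times at P90. The log2 ratio fell by 0.57 from P1 to P90 (SE 0.20, limma Padj = 0.0312), and Padj across the ages was 0.0289. Neither call was stable. The call across the ages was lost without P1 replicate 1, P5 replicate 1, P5 replicate 2, P90 replicate 1 or P90 replicate 3 (Padj 0.0553 to 0.0747), and that between P1 and P90 without any 1 of the P1 libraries, P90 replicate 1 or P90 replicate 3 (0.0543 to 0.0943). Both were lost with the GC trend removed (Padj 0.107 and 0.167). The counts of miR-24-2-5p were identical in all 12 libraries to those of miR-3074-2-3p, an arm of the hairpin annotated on the opposite strand, so the strand of these reads cannot be told apart. MiR-24-1-5p and its opposite, miR-3074-1-3p, had different counts in all 12, with 1.24 to 3.44 times as many for miR-3074-1-3p.

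The miR-23 passenger strands had the lowest mean levels over the 12 libraries, although at P14 the mean of miR-23a-5p (16.4 CPM) was above that of miR-24-1-5p (14.5 CPM), and their ratio gave no call. MiR-23a-5p was 1.85 to 2.06 times miR-23b-5p at P1, 1.40 to 1.86 times at P5, 1.498 to 2.12 times at P14 and 1.34 to 2.08 times at P90. The libraries of all ages overlapped, and Padj across the ages was 0.675 (limma). The difference between P1 and P90 was -0.23 (95% CI -0.76 to 0.29). The counts behind it were only 50 to 69 for miR-23b-5p at P90.

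**Figure D2:**
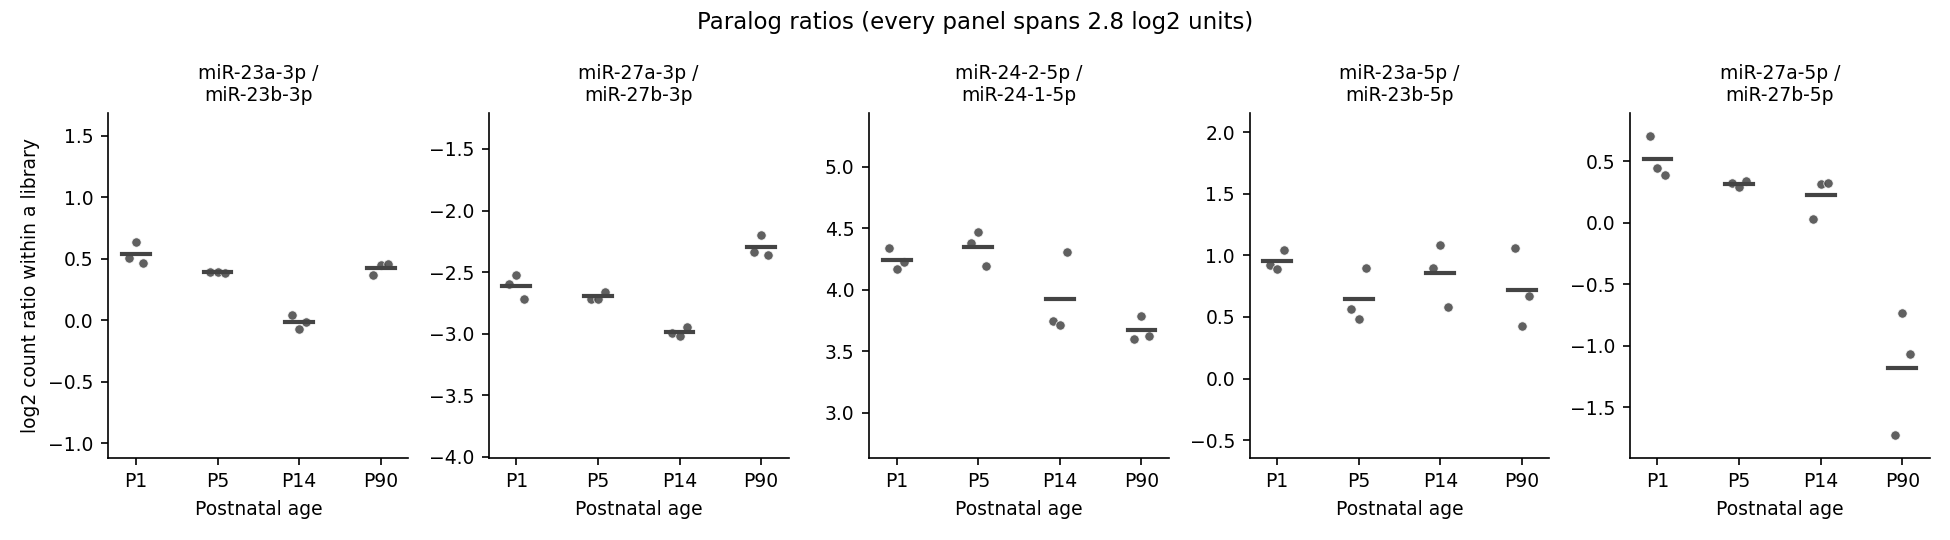
Log2 ratio of the counts of each paralog pair (chromosome 8 member over chromosome 13 member) in each library by postnatal age, with points for libraries and bars for the mean of 3 libraries, on axes that all span 2.8 log2 units. The miR-23-3p ratio dips at P14, the miR-27-3p ratio is lowest at P14 and highest at P90, and the miR-27-5p ratio is below 0 in the P90 libraries only.

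The 3p/5p ratio of a hairpin compares guide and passenger from the same precursor. It was examined for the miR-23a, miR-27a, miR-23b and miR-27b hairpins, but not for miR-24, whose 3p arm is shared. Of these 4 ratios, 3 changed across the ages, against 53.6% of the 239 hairpins tested (limma, Padj under 0.05). None was called from P1 to P5 (1.26% of hairpins) and 1 from P5 to P14 (38.9%). The same 3 as across the ages rose from P14 to P90 (44.4% of hairpins called in either direction) and from P1 to P90 (36.4%). With limma, no paralog or arm ratio had an unadjusted p under 0.05 from P1 to P5, the lowest being 0.0651 for 9 ratios.

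The miR-27a hairpin changed most among the 4. MiR-27a-3p exceeded miR-27a-5p by 28.1, 34.8 and 31.8 times at P1, 38.8, 38.2 and 35.3 times at P5, and 29.1, 26.5 and 22.9 times at P14. In the P90 libraries it exceeded it by 139.9, 165.6 and 126.3 times, far from every library of the other ages. The log2 ratio rose by 2.19 from P1 to P90 (SE 0.17, limma Padj = 1.3e-07), a 4.55-fold change, and by 2.46 from P14 to P90 (SE 0.17, Padj = 5.81e-08). With the GC trend removed, these differences were 2.07 (Padj = 1.15e-07) and 2.33 (Padj = 5.48e-08). The log2 ratio fell by 0.52 from P5 to P14 (SE 0.17, limma Padj = 0.0261), a call that was lost without P5 replicate 1, P5 replicate 2 or P14 replicate 3 (Padj 0.0732 to 0.0872).

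The ratio of the miR-27b hairpin gave no call in the main comparison. MiR-27b-3p exceeded miR-27b-5p by 273.0 to 277.3 times at P1, 283.2 to 318.0 times at P5, 220.3 to 267.1 times at P14 and 213.2 to 456.0 times at P90. The P90 libraries alone spanned all other ages. The difference between P1 and P90 was 0.18 (95% CI -0.31 to 0.67, limma Padj = 0.612), below the interval of the miR-27a hairpin (1.82 to 2.55). The difference between the 2 hairpins was not tested directly. Between P14 and P90 the miR-27b difference was 0.37 (Padj = 0.218), and it passed the threshold without P90 replicate 1 (0.64, Padj = 0.0149) or with the GC trend removed (0.62, Padj = 0.0426).

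Both miR-23 hairpins shifted towards the 3p arm in adults. For miR-23a the 3p arm exceeded the 5p arm by 268.7 to 364.2 times at P1, 353.3 to 401.3 times at P5, 239.6 to 273.6 times at P14 and 505.9 to 1113 times at P90. The log2 ratio rose by 1.19 from P1 to P90 (SE 0.26, limma Padj = 0.00183). With the GC trend removed it rose by only 0.09 and the call was lost (Padj = 0.812), as was that across the ages (Padj = 0.247). GC content is 59.1% in miR-23a-5p, the highest of the members, and 47.6% in miR-23a-3p. For miR-23b the 3p arm exceeded the 5p arm by 402.0 to 446.9 times at P1, 416.5 to 502.3 times at P5, 373.6 to 533.9 times at P14 and 808.2 to 1096 times at P90. The log2 ratio rose by 1.07 from P1 to P90 (SE 0.23, limma Padj = 0.00185), with no GC-corrected value.

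**Figure D3:**
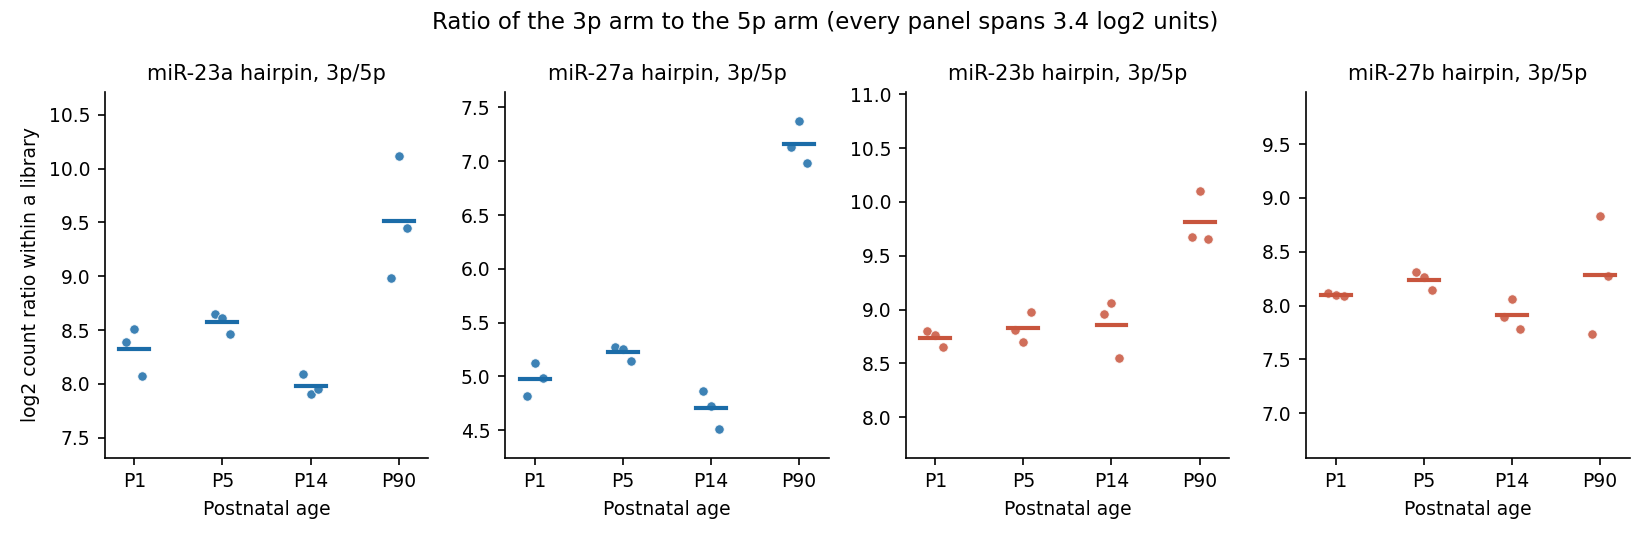
Log2 ratio of 3p to 5p counts of the miR-23a, miR-27a, miR-23b and miR-27b hairpins in each library by postnatal age, with points for libraries and bars for the mean of 3 libraries, on axes that all span 3.4 log2 units. The P90 libraries of miR-23a, miR-27a and miR-23b are above all libraries of the other ages, while those of miR-27b overlap them.

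Within a cluster, the balance of the guides moved between ages. The hairpins of a cluster are often taken to share a primary transcript. For the cluster inside Aopep, however, the paper reports alternatively spliced primary transcripts in mouse embryonic fibroblasts, some of them without all hairpins. The part of such transcripts in the ratios given here was not tested. In the chromosome 8 cluster, miR-27a-3p was the minor guide, and its ratio to miR-23a-3p was 0.297, 0.291 and 0.275 at P1 and 0.269, 0.279 and 0.306 at P5. The ratio was 0.177, 0.162 and 0.187 at P14 and 0.349, 0.503 and 0.451 at P90. In the chromosome 13 cluster the order of the guides was inverted, as miR-27b-3p exceeded miR-23b-3p by 2.54, 2.61 and 2.49 times at P1 and by 2.32, 2.41 and 2.53 times at P5. It exceeded it by 1.46, 1.25 and 1.42 times at P14, and by 2.27, 3.14 and 3.19 times at P90. In both clusters the P14 libraries were below all others, while the P90 libraries were above all others in the chromosome 8 cluster only. The age means spanned 1.30 log2 units for miR-27a-3p/miR-23a-3p (2.46-fold; exact permutation test over 15400 partitions, p = 0.000584, adjusted over both ratios 0.00117) and 1.04 log2 units for miR-27b-3p/miR-23b-3p (2.06-fold; p = 0.00481, adjusted 0.00481). Without any single library the spans were 1.183 to 1.45 and 0.96 to 1.20, with the last value without P90 replicate 1. GC content is 52.4% in miR-27a-3p and 47.6% in miR-23a-3p, and with the GC trend removed their log2FC from P5 to P14 were -0.60 and 0.19.

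**Figure D4:**
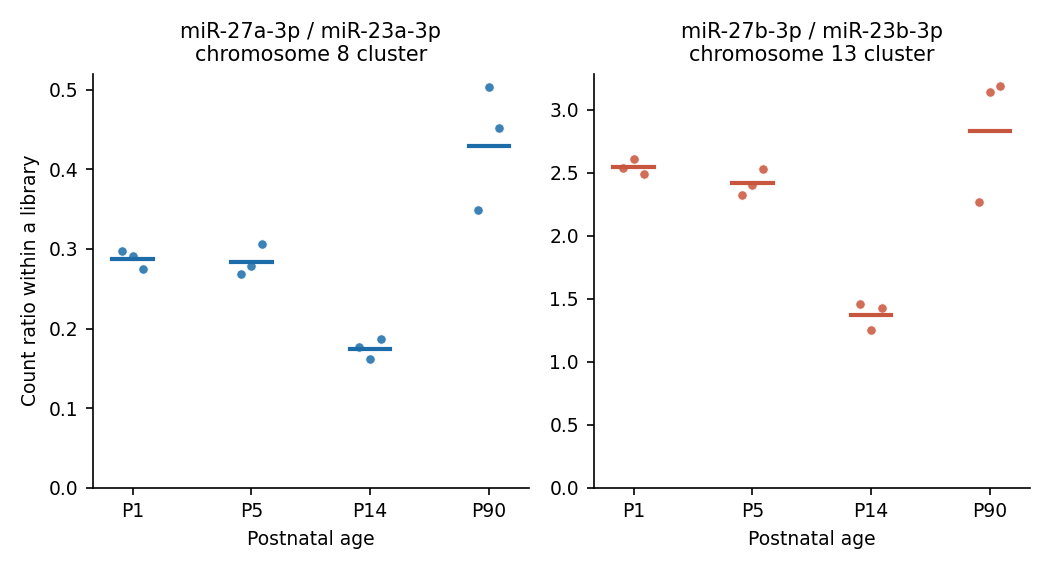
Ratio of miR-27-3p to miR-23-3p counts in each library for the chromosome 8 cluster and the chromosome 13 cluster by postnatal age, with points for libraries and bars for the geometric mean of 3 libraries, on linear axes that start at 0. Both ratios are lowest at P14 (0.162 to 0.187 and 1.25 to 1.46).

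The levels were then compared between consecutive ages with edgeR over all 809 miRNAs. All 10 members changed across the 4 ages, against 72.4% of all miRNAs tested (edgeR, Padj under 0.05). From P1 to P5, none of the 10 passed the threshold with edgeR or with DESeq2 (4.45% of all miRNAs with edgeR), and the edgeR log2FC lay between -0.19 and 0.22. With edgeR none of them had an unadjusted p under 0.05, and with DESeq2 1 had, miR-23b-3p (log2FC 0.26, Padj = 0.0879). From P5 to P14, 4 of 10 rose and none fell, with 18% of all miRNAs called higher and 26.3% lower. These were all arms of the miR-23 hairpins, namely miR-23a-5p (log2FC 1.09, SE 0.24, edgeR Padj = 0.00171), miR-23a-3p (0.50, SE 0.12, Padj = 0.00231), miR-23b-5p (0.90, SE 0.23, Padj = 0.0054) and miR-23b-3p (0.91, SE 0.11, Padj = 6.94e-06). With library totals alone or upper-quartile factors, 8 rose. When the GC trend was removed, miR-23a-5p rose (0.70), miR-27a-3p (-0.60) and miR-24-2-5p (-0.48) fell, and miR-23a-3p and miR-23b-5p were not called (0.19 and 0.49). The call of miR-23a-3p was also lost with no filter on low counts (0.39, edgeR Padj = 0.0518).

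Between P14 and P90 the members split by hairpin and arm on the TMM scale. MiR-27a-3p stood at 753, 628 and 812 CPM at P14 and at 1519, 2094 and 2109 CPM at P90. MiR-27b-3p stood at 6012, 5098 and 6240.3 CPM at P14 and at 7653, 9588 and 10845 CPM at P90. For both miRNAs every P90 library was above every P14 library. MiR-23a-3p had 4252, 3882 and 4345 CPM at P14 and 4347, 4161 and 4674 CPM at P90, which overlapped. MiR-23b-3p had 4130.2, 4072 and 4380.4 CPM at P14 and 3371, 3050.4 and 3399.7 CPM at P90, lower in each P90 library. Thus 4 members rose, namely miR-27a-3p (log2FC 1.38, SE 0.16, edgeR Padj = 1.38e-06), miR-27b-3p (0.69), miR-24-2-5p (0.73) and miR-24-1-5p (0.98), against 22.4% of all miRNAs. Another 4 fell, namely miR-23a-5p (-1.38, SE 0.25, edgeR Padj = 0.000167), miR-23b-5p (-1.33), miR-27a-5p (-1.09) and miR-23b-3p (-0.36), against 36.7% of all miRNAs. These directions depended on the scaling, as all 10 fell with library totals alone, and 8 rose and none fell with upper-quartile factors. Once the GC trend was removed, the falls of miR-23a-5p (-0.33, edgeR Padj = 0.239) and miR-27a-5p (-0.50, Padj = 0.0718) were lost, and that of miR-23b-5p remained (-0.88). The fall of miR-23b-3p was lost without P5 replicate 2 (-0.13) or P14 replicate 3 (-0.29), with no filter on low counts (-0.26, edgeR Padj = 0.217), with RLE size factors (0.007) and with DESeq2 (-0.0011). With RLE size factors or DESeq2, 6 members rose and 3 fell, as miR-23a-3p (0.44 with both) and miR-27b-5p (0.70 and 0.69) were called higher. Both were also called higher without P5 replicate 2 (0.31 and 0.56), and miR-27b-5p without P90 replicate 2 (0.57).

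Because scaling moves all miRNAs together, changes were also set against the median log2FC of all miRNAs tested, which was -0.72 for P90 versus P1 with TMM, -2.97 with library totals alone and 1.177 with upper-quartile factors. Relative to that median, 9 of 10 members were above and miR-27a-5p was below (-0.22), and with the 4 scalings this value was between -0.27 and -0.22. The members' median was 1.48 log2 units above that of all miRNAs. Highest were miR-24-1-5p (2.03) and miR-27a-3p (1.97), and lowest above 0 were miR-23a-5p (0.25) and miR-23b-5p (0.42). This excess was smaller with the GC trend removed. The median log2FC was then 0.304 for the 9 members with a known sequence and -0.61 for all miRNAs. With TMM alone these medians were 0.76 for the 10 members and -0.72. Relative to the median of all, miR-23a-5p (0.858) and miR-27a-5p (-0.17) were higher than before. The others were lower, such as miR-27b-5p (0.914 against 1.497). With TMM alone, from P14 to P90 the 5p arms of miR-23a (-0.83), miR-23b (-0.78) and miR-27a (-0.54) were below the median of all miRNAs. The other 7 members were above it. After removal of the GC trend, miR-23a-5p was 0.03 above that median, and miR-27a-5p (-0.145) and miR-23b-5p (-0.53) were below it. On the TMM scale itself, 7 of 10 rose and 1 fell from P1 to P90 (25.2% and 41.2% of all miRNAs), while all 10 fell with library totals alone and all 10 rose with upper-quartile factors. Removing the GC trend left 5 that rose and 1 that fell of the 9 members with a known sequence, the rise of miR-27b-5p being lost (0.30, edgeR Padj = 0.225, against 0.78) and that of miR-23a-3p smaller (0.29 against 0.66). Without P90 replicate 1, miR-23a-5p was also called lower (-0.80, Padj = 0.00838, against -0.46).

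The miRNAs whose TMM-scaled levels followed each guide most closely were chosen by Pearson's r over the 12 libraries among 338 that averaged 10 CPM or more, which share libraries, scaling and GC trend. For miR-23a-3p these were miR-145a-5p (r = 0.965), miR-100-5p (0.958) and miR-10a-5p (0.958). For miR-23b-3p these were miR-378a-5p (0.975), miR-30d-5p (0.968) and miR-151-3p (0.966). The miR-27 guides had different neighbours. For miR-27a-3p these were let-7g-5p, miR-15a-5p and miR-1b-5p (0.966 each). For miR-27b-3p these were miR-143-3p (0.973), miR-185-5p (0.971) and miR-16-5p (0.968). The hairpin of miR-1b-5p lies opposite one of miR-1a, and the mean of miR-1b-5p was 285087 CPM on the TMM scale. Whether these reads belong to miR-1a was not tested. Among the members, miR-27a-3p and miR-27b-3p (0.942) and miR-23a-3p and miR-23b-3p (0.910) followed each other more closely than did guides within a cluster. Within a cluster, r was 0.559 for miR-23a-3p and miR-27a-3p and 0.482 for miR-23b-3p and miR-27b-3p. With passenger strands included, r within a cluster ranged from -0.756 (miR-27a-5p and miR-27a-3p) to 0.959 (miR-27b-3p and miR-24-1-5p). It was 0.944 for miR-27a-3p and miR-24-2-5p, so some arms of a cluster followed each other as closely as the paralogous guides. The miR-27 guides differ by 1 substitution. The part of reads that fit both paralogs in these correlations was not tested, for the miR-27 or the miR-23 guides.

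MiR-24-3p, the guide encoded by both clusters, had on the TMM scale a mean of 8186 CPM over the 12 libraries (rank 19), above that of every member, but at P90 its mean was below that of miR-27b-3p (9362 ± 1608 CPM). It had 7322 ± 335 CPM (SD, n = 3) in the newborns, 7564 ± 300.0 CPM at P5, 8935 ± 861 CPM at P14 and 8922 ± 1297 CPM at P90. Its count equalled that of miR-3074-5p, which lies opposite, in all 12 libraries.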

How the data were processed

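The authors selected reads by length with cutadapt 1.18, aligned them to GRCm38 with Bowtie2 2.4.1 and counted them per mature miRNA (miRBase annotation) with featureCounts 2.0.1. The deposited table holds these raw counts, with no normalization. How strand, overlapping features and reads with several matches were counted is not given in the sources used here. The sample titles gave the age and replicate number of each library. Members and comparison lists were chosen with earlier results of these data known.

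MiRNAs were kept with filterByExpr (809 of 1966) and scaled with TMM. The 12 libraries were fitted together, 1 mean per age, by the quasi-likelihood method of edgeR 4.0.16 (R 4.3.3), and F-tests (2-sided) were adjusted by Benjamini-Hochberg over all miRNAs tested. Calls were made at Padj under 0.05. Within-library log2 count ratios (pseudocount 0.5) of 68 same-arm paralog pairs and 239 hairpins were tested with limma 3.58.1 and adjusted over all 307. Pairs on opposite strands of a locus were left out. Pairs with the same mature sequence or within 5% of each other in every library were also left out, a choice made after seeing the data. The ratio of guides within a cluster was tested with an exact permutation test (upper tail of the between-age sum of squares, which has no direction). The fits were tested on simulated data.

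Alternatives comprised RLE factors, library totals, upper-quartile factors, no filter on low counts, DESeq2 1.42.0, a replicate block, removal of a loess trend on GC content (known for 85.0% of the miRNAs tested, not for miR-23b-3p), opposite-strand miRNAs left out, other pseudocounts and filters for ratios, and leaving out each library. Named were the 10 members, their opposite-strand neighbours, and the 3 miRNAs most correlated with each guide. Sequences came from RefSeq (GRCm38.p6). Wilson intervals of shares cover counting error only, whereas intervals of log2 ratio differences come from the limma fit and cover the spread between libraries. The edgeR and limma p-values set differences between ages against the spread between libraries of an age, pooled over the 12 libraries. The permutation p-value is the share of partitions with a between-age sum of squares at least as large as the observed one. Other samples of the study were not analysed here.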

Additional observations from a re-analysis of the deposited data

How the results depend on the processing

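The counts of members and ratios past the threshold, in either direction, were compared with the main value. They were within 1.5 times of it in 59 of 64 cases over the alternatives other than leaving out a library. The same held in all 96 cases that left 1 library out. This comparison takes no account of direction, so a setting in which calls reversed can count as alike. Without 1 library each, 9 to 10 members were called across the ages, 0 at P5 versus P1, 4 at P14 versus P5, 7 to 9 at P90 versus P14 and 8 to 9 at P90 versus P1, and 3 to 4 paralog ratios, 3 arm ratios and, for P90 versus P1, 2 to 3 paralog ratios were called. Without the P14 libraries, an alternative chosen after seeing the data, 8 members, 3 paralog ratios and 3 arm ratios were called.

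From P5 to P14, 8 members were called with library totals alone and 8 with upper-quartile factors, against 4. With the GC trend removed, 5 of the 9 members with a known sequence were called from P14 to P90, against 8 of 10, and across the ages 2 of 4 paralog ratios and 1 of 3 arm ratios. Directions reversed under scaling. With library totals alone, log2FC from P14 to P90 were -2.16 for miR-23a-3p, -0.86 for miR-27a-3p, -1.54 for miR-24-2-5p, -1.89 for miR-27b-5p, -1.56 for miR-27b-3p and -1.30 for miR-24-1-5p. From P1 to P90 they were -1.62 for miR-23a-3p, -1.04 for miR-27a-3p, -1.56 for miR-24-2-5p, -1.497 for miR-23b-3p, -1.498 for miR-27b-5p, -1.36 for miR-27b-3p and -0.996 for miR-24-1-5p. With upper-quartile factors, log2FC from P14 to P90 were 0.19 for miR-23a-5p, 0.48 for miR-27a-5p, 0.24 for miR-23b-5p and 1.21 for miR-23b-3p, and from P1 to P90 1.42 for miR-23a-5p, 0.93 for miR-27a-5p and 1.59 for miR-23b-5p. With RLE factors, miR-23b-3p had 0.007 (P14 to P90). These settings differ only in the library factors.

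Replicate numbers did not pair the libraries: deviations of same-numbered libraries correlated at -0.344 to 0.237 (6 of 18 above 0.1), and 2 of 12 libraries correlated best with their own number. With the replicate block, 10, 0, 4, 8 and 8 members were called in the 5 tests in the order above, with 3 paralog ratios (miR-24-2-5p/miR-24-1-5p at Padj = 0.0502) and 3 arm ratios across the ages and 3 paralog ratios from P1 to P90. Depth limited miR-23b-5p most, with 50 to 69 counts at P90.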
